A study of Mus musculus with 8 samples.

Results

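Adipocyte nuclei were a rare population of the mouse heart, with 654 nuclei among the 169193 barcodes of 8 single-nucleus RNA-seq libraries. They were chosen by their own transcripts. Among the 167504 barcodes with at least 800 unique molecular identifiers (UMIs) outside the mitochondrial genome, a barcode was kept where the summed share of Plin1, Adipoq, Cidec, Plin4, Acvr1c, Tshr, Adrb3 and Slc7a10 was at least 10 times that of the whole library. At least 5 UMIs on at least 3 of these 8 genes were also required, and the share of Ryr2 and Ttn, 2 cardiomyocyte genes, could not exceed that of the library. The levels of these genes thus describe the choice and are given without a test between genotypes.

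Whole hearts of 9-week-old male mice were used, 4 wild-type (WT) and 4 carrying a knockout of Tafazzin (Taz-KO), a model of Barth syndrome, with 1 library per mouse. The mouse is therefore the replicate, and p-values measure the spread between mice. The libraries were named by mouse number, WT 4686, 4909, 5355 and 5356 and Taz-KO 4685, 4910, 5300 and 5301. Which part of the gene the knockout removes and the strain background are not given in the sources used here.

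Adipocytes store triglyceride in a lipid droplet coated by perilipins and release fatty acids from it when adrenergic or natriuretic signals activate lipolysis. In the heart they lie mainly in the epicardial and perivascular fat, where they exchange fatty acids and adipokines with the muscle beside them. Brown and beige adipocytes in addition burn fuel for heat through uncoupling protein 1. Tafazzin remodels cardiolipin, the phospholipid of the inner mitochondrial membrane, and its loss in Barth syndrome affects respiration.

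The 8 libraries held 20025456 to 348080773 UMIs, of which 1.57% to 23.7% were mitochondrial. Taz-KO 4685 and 5301 had 3492 and 5571 barcodes, whereas the others had 21190 to 36308. These are barcodes called by Cell Ranger, so some may be empty droplets. Any 2 libraries shared between 0.0573% and 1.04% of the barcodes of the smaller one, and no adipocyte barcode was an adipocyte barcode in another library. The other barcodes had Taz levels of 41.1, 42.0, 41.7 and 40.8 CPM (UMIs of a gene per 1000000 UMIs) in the 4 WT mice, against 31.4, 22.6 and 28.4 CPM for Taz-KO 4910, 5300 and 5301. Taz was lower in each of these Taz-KO mice (log2 fold change -0.64, edgeR adjusted p = 0.0626). Transcript of the gene was thus still counted in the Taz-KO libraries.

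The number of adipocyte nuclei differed widely among hearts. WT 4686, 4909, 5355 and 5356 gave 58, 132, 63 and 35 nuclei, and Taz-KO 4685, 4910, 5300 and 5301 gave 4, 228, 119 and 15. As a share of barcodes the WT hearts had 0.292% ± 0.121 and the Taz-KO hearts 0.383% ± 0.210 (SD, n = 4 each), and the 2 groups overlapped (exact two-sided permutation test, p = 0.514; the smallest possible p was 0.0286). As a share of UMIs, adipocyte nuclei held 0.421% ± 0.158 in WT and 0.646% ± 0.139 in Taz-KO (SD, n = 4 each; exact two-sided permutation test, p = 0.0571). The highest of these values, 0.784%, was that of Taz-KO 4685 and rested on its 4 nuclei. With a marker enrichment of at least 20, that mouse kept 1 nucleus and 0.0249% of UMIs. The share of barcodes also moves with how many barcodes a library holds, and the libraries of Taz-KO 4685 and 5301 held few.

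**Figure D1:**
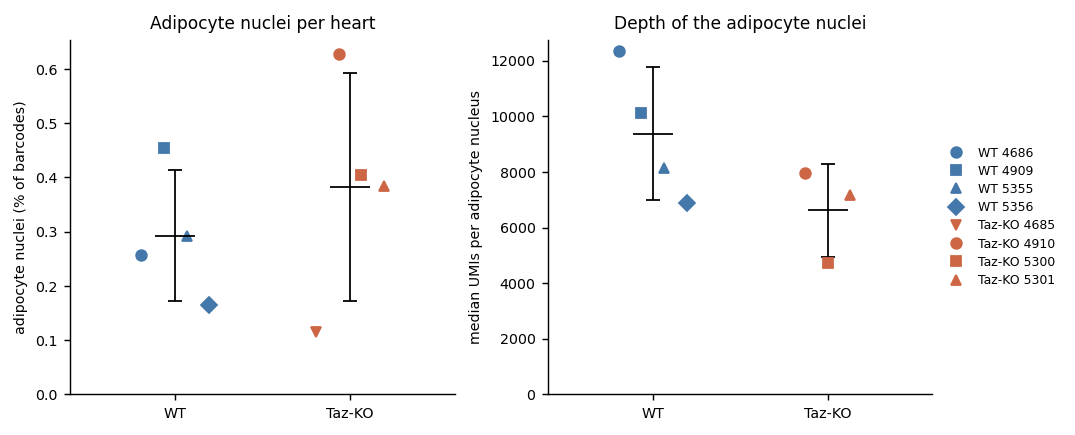
Adipocyte nuclei as a percentage of the barcodes of each heart (left) and their median number of non-mitochondrial UMIs (right; Taz-KO 4685, with 4 nuclei, is not shown there). Each symbol is 1 mouse, the horizontal bar is the mean and the whiskers are 1 SD. WT and Taz-KO mice overlap in both panels, and the share is lowest in Taz-KO 4685 and highest in Taz-KO 4910.

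The chosen nuclei had a median of 7907.5 UMIs outside the mitochondrial genome, with a range from 1827 to 99345. Medians per mouse averaged 9378 ± 2394 for the 4 WT and 6615 ± 1680 for the 3 tested Taz-KO mice (± SD), with overlapping mice (exact two-sided permutation test, p = 0.229; the smallest possible p was 0.0286). The other barcodes were shallower in Taz-KO too, at 3327 ± 1077 against 5477 ± 1130 UMIs (SD, n = 4 each; exact two-sided permutation test, p = 0.0571). Taz-KO 4685 stood apart, since its 4 nuclei had a median of 26657 UMIs. For tests between genotypes, UMIs were summed over the adipocyte nuclei of each mouse with at least 10 of them, which left 4 WT mice and 3 Taz-KO mice (4910, 5300 and 5301). The sums ranged from 110874 UMIs in Taz-KO 5301 and 278368 in WT 5356 to 1985571 in Taz-KO 4910, so the values of the first 2 mice carry the most counting error.

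The marker enrichment of the 654 nuclei had a median of 27.6 times the library and ran from 10.04 to 167. Just inside the limit, 42 nuclei lay between 10 and 12.5 times. Just outside it, 3, 14, 6 and 0 barcodes of the WT mice (in the order given above) and 0, 4, 7 and 0 of the Taz-KO mice lay between 8 and 10 times. The limit on cardiomyocyte transcripts removed a further 5, 10, 10 and 2 WT barcodes and 0, 15, 16 and 0 Taz-KO barcodes. The chosen nuclei held only 10.2% to 25.0% of the UMIs of the 8 genes in a library, and the rest lay in other barcodes at low levels.

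The genes of the choice were counted as follows, as a description. Plin1, the perilipin of the adipocyte lipid droplet, was at 359, 575.7, 545 and 747 CPM in WT hearts, 698, 523 and 875 CPM in Taz-KO hearts, and 0.945 to 5.26 CPM in the other barcodes. Cidec, which fuses lipid droplets, was at 344, 456, 259.0 and 790.3 CPM in WT and 536, 464 and 938 CPM in Taz-KO. Acvr1c, the activin receptor ALK7, was at 611, 456, 386 and 1099 CPM in WT and 532, 550.0 and 568 CPM in Taz-KO. Plin4 was the weakest discriminator of the 8, at 3.28 to 9.08 times its CPM in the other barcodes, where it was found at 37.6 to 68.3 CPM. For the other 7 genes the lowest ratio over the 7 mice ran from 14.2 for Tshr, the thyrotropin receptor, to 121 for Acvr1c.

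Genes outside the choice also marked these nuclei. Ranked by their lowest ratio over mice to the other barcodes of the same heart, the first 12 were Ankef1, A530053G22Rik, Pck1, Tmem45b, Lncbate1, Car3, Adtrp, Prkar2b, Cyp2e1, Ctcflos, Ptger3 and Pnpla3, with lowest ratios from 26.9 to 131. Several are known adipocyte genes. Pck1 makes the glycerol backbone of triglyceride from pyruvate, Car3 is an abundant adipocyte carbonic anhydrase, Prkar2b is a regulatory subunit of protein kinase A, Adtrp and Pnpla3 hydrolyse lipids, and Lncbate1 is a long noncoding RNA of brown adipocytes. Pck1 was at 685, 1112, 1009 and 755 CPM in WT hearts, against 938, 550.0 and 1242 CPM in Taz-KO hearts, between 104 and 657 times the other barcodes. Because the nuclei were chosen by correlated transcripts, these ratios describe the population and were not tested. A further 20 adipocyte markers, which had no part in the choice, together stood at 2.51 to 6.24 times the other barcodes in the 7 mice. As markers of the same cell type they are no separate evidence for the label, and their ratio too is a description. Genes shared with the muscle and the vessels stood out less: Cd36, the fatty acid transporter, had a median ratio of 1.19, Lpl, the lipoprotein lipase, of 2.05, and Fabp4, a fatty acid carrier also of endothelium, of 2.89.

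**Figure D2:**
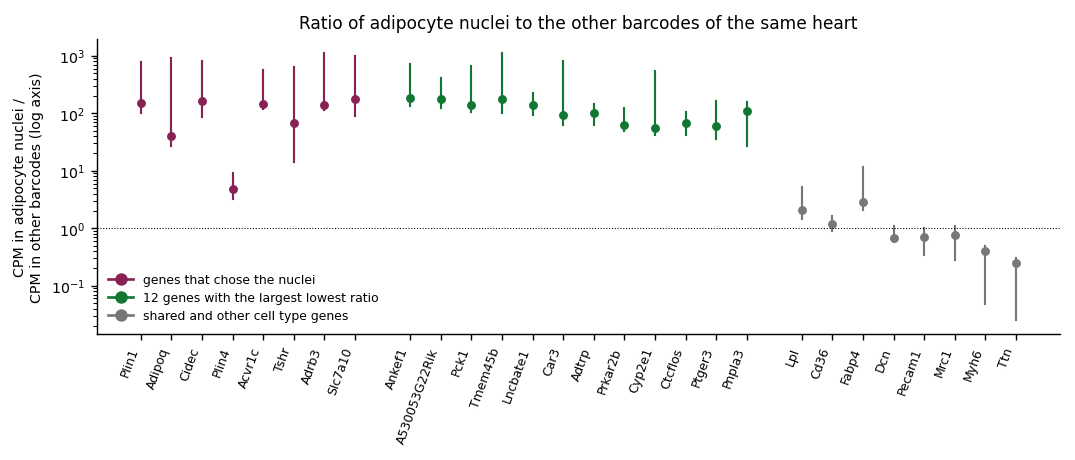
CPM in the adipocyte nuclei divided by CPM in the other barcodes of the same heart, on a log axis. Points are medians and lines the range over 7 mice. The genes that chose the nuclei (purple) and the 12 genes with the largest lowest ratio (green) lie far above 1 except Plin4, Cd36 lies near 1 (median 1.19), and the cardiomyocyte gene Ttn lies below it.

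Markers of other cell types were counted in the adipocyte nuclei, and their part in the results was not tested. No doublet caller was run. More than 3 times the library's share of markers was found for macrophages in 23, fibroblasts in 3, endothelial cells in 9, pericytes and smooth muscle in 13, mesothelial cells in 26, Schwann cells in 53, lymphocytes in 38 and cardiomyocytes in 0 of the 654 nuclei. The summed level of 12 cardiomyocyte markers was 4185 to 15143 CPM in WT and 956, 10125 and 10935 CPM in Taz-KO, 0.0745 to 0.600 times the other barcodes. The 13 fibroblast markers together reached 0.442 to 1.02 times, the 8 lymphocyte markers 0.357 to 1.74 times and the 6 Schwann cell markers 0.897 to 1.58 times the other barcodes. The lowest level of cardiomyocyte markers was that of Taz-KO 5301. The cytosolic ribosomal protein genes, at 1858 CPM in Taz-KO 5301 and 3036 CPM in WT 5356, were likewise low in the 2 tested mice with the fewest nuclei, against 7547 to 15419 CPM in the other 5.

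Which genes differed between Taz-KO and WT adipocytes was tested over the 7 mice. Of 9251 genes tested, edgeR called 0 (0%) at an adjusted p of 0.05, the smallest being 0.0902, and 0 (0%) at the stricter thresholds of the study (adjusted p below 0.001 and a log2 fold change beyond 0.58). At an unadjusted p below 0.05, 349 genes were higher (3.77%) and 499 lower (5.39%) in Taz-KO. DESeq2 called 23 genes higher (0.245%) and 11 lower (0.117%) of 9374. The mice of the 2 genotypes did not overlap for 383 genes that were higher (4.14%) and 628 that were lower (6.79%) in every Taz-KO mouse. Taken over all 9251 genes, the median log2 fold change was -0.01 and 48.9% of genes were higher in Taz-KO. Without Taz-KO 5301, which has 15 nuclei, edgeR called 28 genes, 23 higher and 5 lower, of 10006.

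Genes enriched in adipocyte nuclei were then counted against this background of 4.14% higher and 6.79% lower. Apart from the genes of the choice, 237 tested genes had a median ratio of at least 5 to the other barcodes, and 30 of them (12.7%) were higher in all 3 Taz-KO mice than in all 4 WT mice, whereas 3 (1.27%) were lower in all. Of the 237 genes, 151 had a positive and 86 a negative fold change, with a median of 0.24. Genes of fatty acid synthesis, the enzymes that build fatty acids from citrate, were part of it. Without them 226 genes were left, of which 23 were higher in every Taz-KO mouse, with a median of 0.20. The ratio was taken over all 7 mice, so a gene that is high only in Taz-KO adipocytes could enter. When it was taken from the WT mice alone, 22 of 224 genes (9.82%) were higher and 6 (2.68%) lower in every Taz-KO mouse. Of these 224 genes, 131 had a positive fold change, and the median was 0.12. A further set kept nuclei with fibroblast, macrophage and endothelial markers each at or below the library's share, and other lineages were not limited. In it 17 of the 237 (7.17%) were higher, against 2.90% of all genes, and 9 (3.80%) were lower, against 3.69% of all genes.

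Fatty acid synthesis genes, which are given briefly, were mostly higher. Of 18 tested, 17 were higher and 1 lower in Taz-KO, with a median log2 fold change of 1.12 against -0.09 in the other barcodes and -0.01 for all genes in adipocytes. All Taz-KO mice were higher for 8 of them, against 4.14% of all genes, and DESeq2 called 5 higher, against 0.245%. Elovl6, which elongates palmitate, was at 216, 140.3, 350.0 and 296 CPM in WT hearts, against 801, 1163 and 1048 CPM in Taz-KO hearts (2.01 ± 0.32 (SE) log2 fold change, edgeR adjusted p = 0.0902), with no overlap. Mlxipl, which encodes the glucose-sensing activator ChREBP and was placed in this list, was at 408, 340.2, 313 and 427 CPM in WT hearts, against 544, 736 and 659.9 CPM in Taz-KO hearts, also with no overlap (log2 fold change 0.80 ± 0.23 (SE)).

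Several further adipocyte genes were higher in every Taz-KO mouse. Ttc25 (chr11:100545607-100572568, plus strand, GRCm38), named for its tetratricopeptide repeats and known from motile cilia, was at 27.8, 8.33, 2.93 and 11.9 CPM in WT hearts, against 77.0, 197 and 223 CPM in Taz-KO hearts. Its lowest Taz-KO mouse was thus above the highest WT mouse (log2 fold change 3.58 ± 0.57 (SE), edgeR adjusted p = 0.0902, DESeq2 adjusted p = 2.09e-06). In the other barcodes its log2 fold change was 0.84. With 22, 13, 2 and 3 UMIs in WT hearts, Ttc25 would not have passed the filter on low counts without the Taz-KO mice. Its fold change and p-values thus lean on low WT counts. Ttc25 starts 17607 bases from the start of Acly (chr11:100476353-100528000, minus strand), the ATP citrate lyase that supplies acetyl-CoA for lipid synthesis, and the 2 genes are transcribed away from each other. Acly itself was at 269, 78.8, 33.7 and 154 CPM in WT hearts, against 366, 1351 and 864 CPM in Taz-KO hearts (log2 fold change 2.69 ± 0.62 (SE), edgeR adjusted p = 0.190).

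Hephl1, a multicopper ferroxidase related to hephaestin, was almost absent from WT adipocytes, with 4, 1, 0 and 0 UMIs in WT hearts, against 41, 37 and 6 UMIs in Taz-KO hearts (log2 fold change 4.57 ± 0.73 (SE), edgeR adjusted p = 0.0902, DESeq2 adjusted p = 0.000224). Mfsd2a, the lysophosphatidylcholine transporter that carries docosahexaenoic acid into cells, was counted with 8, 0, 1 and 0 UMIs in WT hearts, against 48, 29 and 3 UMIs in Taz-KO hearts (log2 fold change 3.49 ± 0.76 (SE), edgeR adjusted p = 0.166). The higher value in WT 4686 than in the other WT mice was seen for both genes. Both passed the filter on low counts only through the Taz-KO mice, so their fold changes and p-values lean on WT counts near 0. The other barcodes had log2 fold changes of 0.88 for Hephl1 and 1.95 for Mfsd2a. Mfsd2a was near the floor there, with means of 0.0538 CPM in WT and 0.231 CPM in Taz-KO. Whether these transcripts came from adipocyte RNA in the other barcodes was not tested.

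Hk2 (chr6:82725025-82774454, minus strand), the insulin-inducible hexokinase, was at 522, 263, 344 and 261 CPM in WT hearts, against 667, 1273 and 1300.4 CPM in Taz-KO hearts. Every Taz-KO mouse was above every WT mouse (log2 fold change 1.62 ± 0.33 (SE), edgeR adjusted p = 0.151, DESeq2 adjusted p = 0.00358), and the change in the other barcodes was 0.49. Pygl and Gbe1, enzymes of glycogen metabolism, are named after their values were seen and stand for no list. Pygl, the liver-type glycogen phosphorylase, was at 126, 68.5, 135 and 142 CPM in WT hearts, against 192, 364 and 262 CPM in Taz-KO hearts (log2 fold change 1.23 ± 0.31 (SE)). Gbe1, the glycogen branching enzyme, was at 617, 394, 438 and 458 CPM in WT hearts, against 859.9, 961 and 1232 CPM in Taz-KO hearts (log2 fold change 1.08 ± 0.25 (SE)). Gbe1 passed in DESeq2 (adjusted p = 0.0234), Pygl did not (adjusted p = 0.133), and neither passed in edgeR (adjusted p = 0.180 for Gbe1 and 0.203 for Pygl). Among all 21 tested genes of insulin signaling and glucose uptake, 13 were higher and 8 lower with a median of 0.13, and 2 were higher and 2 lower in every Taz-KO mouse, against 4.14% and 6.79% of all genes. The median was 0.22 without WT 5356, 0.006 with a marker enrichment of at least 20 and -0.05 with equal weight per nucleus.

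Glycerol 3-phosphate is the backbone on which triglyceride is built. Gpd1, which makes it from a glycolytic intermediate in the cytosol, was at 546, 521, 406 and 182 CPM in WT hearts, against 619, 953 and 873 CPM in Taz-KO hearts (log2 fold change 0.96 ± 0.34 (SE)). Gpd2, its mitochondrial counterpart in the glycerophosphate shuttle, was at 234, 231, 274 and 134 CPM in WT hearts, against 299, 412 and 466 CPM in Taz-KO hearts (log2 fold change 0.80 ± 0.27 (SE), a gene named after its values were seen). Lpin1, the phosphatidate phosphatase of triglyceride synthesis, was at 492, 219.7, 296 and 304 CPM in WT hearts, against 685, 495 and 514 CPM in Taz-KO hearts (log2 fold change 0.79 ± 0.29 (SE)). Mice did not overlap for these 3 genes, although for Lpin1 the closest 2 mice were almost equal, and none passed the edgeR adjustment (adjusted p from 0.335 to 0.384). Of the 14 tested genes of triglyceride synthesis, 2 were higher in every Taz-KO mouse, against 4.14% of all genes. In this list 10 were higher and 4 lower with a median of 0.32 against -0.24 in the other barcodes. This median rested on Taz-KO 5301, without which it was -0.09.

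The genes that move pyruvate into the mitochondrial matrix and through the citrate cycle were mostly higher, at 19 of 23 with a median of 0.28 (4 lower; other barcodes -0.23). The median was 0.12 without WT 5356 and 0.03 with all 8 mice. All Taz-KO mice were higher for 5 of the 23, against 4.14% of all genes. Mpc1, a subunit of the mitochondrial pyruvate carrier, was at 331, 264, 259 and 265 CPM in WT hearts, against 469, 432 and 408 CPM in Taz-KO hearts (log2 fold change 0.65 ± 0.21 (SE)). Dlat, the E2 component of pyruvate dehydrogenase, was at 197, 204, 221 and 150.1 CPM in WT hearts, against 251, 403 and 408 CPM in Taz-KO hearts (log2 fold change 0.84 ± 0.24 (SE)). The edgeR adjusted p was 0.322 for Mpc1 and 0.268 for Dlat. For Dlat the lowest level was that of WT 5356, which also had few adipocyte UMIs.

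**Figure D3:**
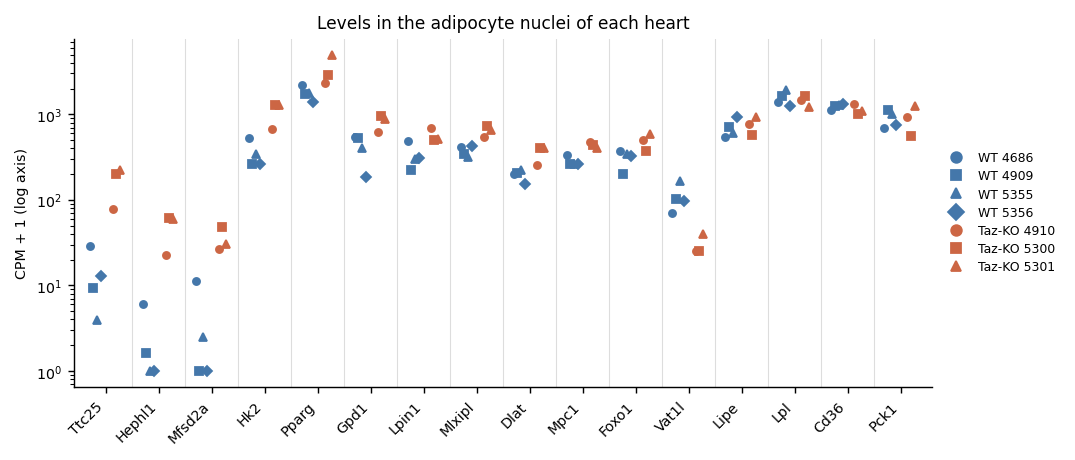
CPM + 1 (log axis) in the adipocyte nuclei of each of 7 hearts, for genes described in the text. Each symbol is 1 mouse, WT in blue and Taz-KO in orange. The orange symbols lie above all blue ones for Ttc25, Hephl1, Mfsd2a, Hk2, Pparg, Gpd1, Lpin1, Mlxipl, Dlat and Mpc1, below them for Vat1l, and neither all above nor all below them for Lipe, Lpl, Cd36 and Pck1.

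Transcription factors of the adipocyte program were higher in 20 and lower in 7 of 27 genes, with a median log2 fold change of 0.23 against -0.31 in the other barcodes. Without Taz-KO 5301 the median was 0.06, and with all 8 mice 0.05. Of the 27, 2 were higher in every Taz-KO mouse, against 4.14% of all genes. Pparg, the master regulator of fat cell differentiation and a target of thiazolidinediones, was at 2199, 1743, 1795 and 1379 CPM in WT hearts, against 2313, 2852 and 4920.0 CPM in Taz-KO hearts (log2 fold change 0.91 ± 0.33 (SE), edgeR adjusted p = 0.372). All 3 Taz-KO mice lay above the WT mice, but Taz-KO 5301 was the highest by a wide margin, and without it the log2 fold change was 0.54. Foxo1, which restrains differentiation when insulin signaling is low, was at 371, 198, 339.8 and 324 CPM in WT hearts, against 495, 372 and 592 CPM in Taz-KO hearts (log2 fold change 0.65 ± 0.27 (SE)). Gm44079, an RNA annotated within the Pparg locus (chr6:115451815-115464990) on the opposite strand and named after its values were seen, was at 145, 72.4, 96.7 and 55.3 CPM in WT hearts, against 181, 302 and 505 CPM in Taz-KO hearts (log2 fold change 1.72 ± 0.38 (SE), DESeq2 adjusted p = 0.0129). How the counting treated strand is not given in the sources used here, so its reads and those of Pparg may not be fully separated.

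Other adipocyte genes with separated mice, named after their values were seen unless stated, had diverse roles. They included Pim1, a serine/threonine kinase within the naming rule (log2 fold change 1.15), Sh2b2, an adaptor of the insulin receptor (0.78), Slc25a51, the mitochondrial NAD carrier (0.83), Hsd17b12, which acts in fatty acid elongation (0.78), Adcy10, the soluble adenylyl cyclase (1.35), Sugct (1.05) and, within the rule, Lncbate1 (0.89). None of these 7 passed in edgeR or DESeq2. Adcy10 had 15, 16, 4 and 6 UMIs in WT hearts and would not have passed the filter on low counts without the Taz-KO mice.

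Among the enriched genes, Vat1l was lower in every Taz-KO mouse. It encodes a protein related to the vesicle amine transport protein Vat1 and lies at chr8:114205612-114374071, plus strand. In adipocyte nuclei it was at 68.3, 101, 167 and 94.8 CPM in WT hearts, against 24.4, 24.3 and 38.8 CPM in Taz-KO hearts, so that the highest Taz-KO mouse was below the lowest WT mouse (log2 fold change -2.06 ± 0.36 (SE), edgeR adjusted p = 0.0902, DESeq2 adjusted p = 0.00489). In the other barcodes of the same hearts the change had the opposite sign, at 1.91 (edgeR adjusted p = 0.0123). Whether the 2 changes differ was not tested. Chdh, the choline dehydrogenase (log2 fold change -0.50), and 4732419C18Rik (-1.47) were the other adipocyte genes that were lower in all 3 Taz-KO mice. Both are named after their values were seen, and neither passed in edgeR or DESeq2. Chdh had 0 UMIs in Taz-KO 5301. Taz-KO 4910 and 5300, at 35.0 and 35.6 CPM of Chdh, lay just below the lowest WT mouse, at 36.7 CPM. 4732419C18Rik had 7, 8 and 1 UMIs in Taz-KO hearts and passed the filter on low counts only through the WT mice.

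Genes of lipid storage and release had separated mice in numbers near the shares over all genes. Of 18 tested genes of the lipid droplet and lipolysis, 12 were higher and 6 lower with a median of 0.10 (0.35 over the fewer genes tested after thinning to equal depth, and -0.06 with equal weight per nucleus), and 1 was higher in every Taz-KO mouse, against 4.14% of all genes. This was G0s2, an inhibitor of adipose triglyceride lipase, at 94.8, 81.4, 103 and 35.6 CPM in WT hearts, against 114, 167 and 107 CPM in Taz-KO hearts (log2 fold change 0.69 ± 0.31 (SE)). Lipe, the hormone-sensitive lipase, was at 539, 719, 606 and 928 CPM in WT hearts, against 769.6, 579 and 922 CPM in Taz-KO hearts (log2 fold change 0.11 ± 0.27 (SE)), with overlapping mice. Lpl (log2 fold change -0.12 ± 0.27 (SE)), Cd36 (-0.12 ± 0.24 (SE)) and Fabp4 (0.01 ± 0.29 (SE)) differed from 0 by less than 1 SE, and the 16 tested genes of fatty acid uptake and caveolae were 8 higher and 8 lower with a median of -0.02, of which 1 was lower in every Taz-KO mouse, near the 6.79% of all genes. That median was -0.24 with all 8 mice and -0.40 with equal weight per nucleus. Aqp7, the glycerol channel, at log2 fold change -0.79 ± 0.32 (SE), and Angptl4, the fasting-induced inhibitor of lipoprotein lipase, at -0.77 ± 0.33 (SE), were lower on average, but mice overlapped. Fatty acid oxidation genes were 12 higher and 8 lower of 20, with a median of 0.05 against -0.62 in the other barcodes, and 1 was higher in every Taz-KO mouse, near the 4.14% of all genes. The median ran from -0.06 without WT 5356 to 0.20 without WT 4909.

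Hormone receptors and cAMP genes were 14 higher and 5 lower of 19, with a median of 0.40 against -0.28 in the other barcodes, and in none did the mice separate. The median was 0.22 without Taz-KO 5301 and 0.22 with all 8 mice. Ptger3, the prostaglandin E receptor that damps lipolysis, was at 181, 91.0, 58.6 and 119 CPM in WT hearts, against 160.3, 339.7 and 291 CPM in Taz-KO hearts (log2 fold change 1.21 ± 0.38 (SE)), with overlap. Ghr, the growth hormone receptor, was at 3576, 3069, 2484 and 9445 CPM in WT hearts, against 5634, 5469 and 9966 CPM in Taz-KO hearts (log2 fold change 0.60 ± 0.47 (SE)). Its values in WT 5356 and Taz-KO 5301 were well above those of the other 5 mice. Adipokines and secreted factors were 7 higher and 7 lower of 14, with a median of 0.11 that was 0.34 without WT 5356, 0.28 without Taz-KO 5301, -0.01 without Taz-KO 5300 and -0.18 with equal weight per nucleus. Nrg4, the neuregulin of brown fat, was at 926, 681, 742 and 478 CPM in WT hearts, against 1316, 598 and 1155 CPM in Taz-KO hearts (log2 fold change 0.53 ± 0.32 (SE)), with overlap.

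Genes of branched-chain amino acid breakdown, a pathway active in fat cells, were mostly lower, with 15 lower and 3 higher of 18 and a median of -0.28, which was -0.15 without WT 4909, -0.14 with the ambient share subtracted and -0.05 with sums thinned to equal depth. The other barcodes had a median of -0.43 for the same list. Of these genes, 1 was lower in every Taz-KO mouse, against 6.79% of all genes. The 9 tested genes of cardiolipin synthesis and remodeling were 6 higher and 3 lower with a median of 0.15 (-0.04 without WT 5356), and none had separated mice. Taz, among them, was at 62.0, 39.7, 43.9 and 55.3 CPM in WT hearts, against 39.3, 35.6 and 48.5 CPM in Taz-KO hearts in adipocyte nuclei (log2 fold change -0.33 ± 0.27 (SE), edgeR adjusted p = 0.769). These values overlapped and rested on 49, 62, 30 and 14 UMIs in WT hearts, against 74, 22 and 5 UMIs in Taz-KO hearts, so at this depth the knockout was not detectable from Taz in adipocyte nuclei alone.

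**Figure D4:**
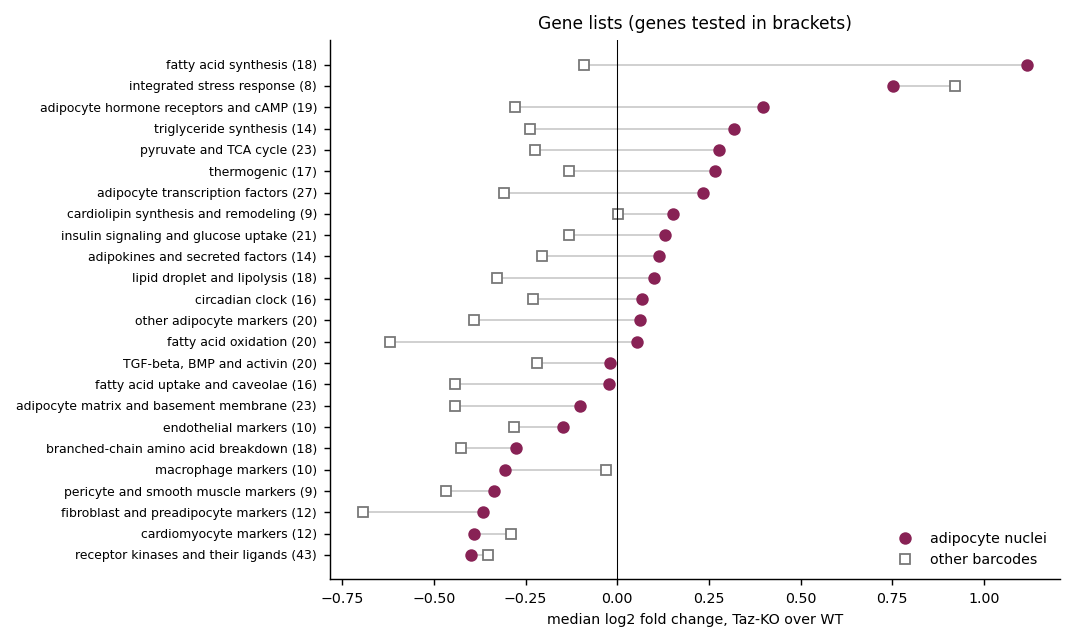
Median log2 fold change of Taz-KO over WT for each gene list, in adipocyte nuclei (filled circles) and in the other barcodes of the same mice (open squares); the number of genes tested is in brackets. Fatty acid synthesis is farthest to the right in adipocyte nuclei, at 1.12. The circle lies right of its square for the metabolic lists and for most others, such as matrix (-0.10 against -0.44) and fibroblast markers (-0.37 against -0.69). It lies left for receptor kinases, the integrated stress response, macrophage markers and cardiomyocyte markers. A median over all genes of the other barcodes is not given here.

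Receptor kinases and their ligands, through which cells of the heart signal to each other, were 15 higher and 28 lower of 43, with a median of -0.40 (-0.11 with all 8 mice). The other barcodes had a median of -0.35 for this list, which was near that of the adipocyte nuclei. In 8 genes all Taz-KO mice were lower and in 1 all were higher, against 6.79% and 4.14% of all genes. Ddr2, a collagen receptor, was at 58.2, 138, 70.3 and 146 CPM in WT hearts, against 53.6, 51.8 and 19.4 CPM in Taz-KO hearts (log2 fold change -1.06 ± 0.38 (SE)), and Axl, the receptor of Gas6, was at 110.0, 131, 103 and 83.0 CPM in WT hearts, against 57.9, 69.6 and 38.8 CPM in Taz-KO hearts (log2 fold change -0.87 ± 0.26 (SE)). Both are strongly expressed by fibroblasts, and they were not enriched here, with median ratios of 0.437 and 0.560 to the other barcodes. Among 20 genes of TGF-beta, BMP and activin signaling, 10 were higher and 10 lower (median -0.02, but -0.22 without Taz-KO 4910 and 0.17 with all 8 mice) and 5 were lower in every Taz-KO mouse, against 6.79% of all genes, including Ltbp1, which stores TGF-beta in the matrix (-0.93), and Tgfb1 (-0.87). Lama2, a laminin chain, was at -0.74 and was 1 of 3 genes lower in every Taz-KO mouse among 23 matrix genes (median -0.10, but 0.01 without Taz-KO 5301 and -0.24 without Taz-KO 5300), against 6.79% of all genes.

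Several transcripts of immune cells were lower in the adipocyte nuclei of every Taz-KO mouse. Of the 10 tested macrophage markers, 7 were lower and 3 higher, with a median of -0.31 against -0.03 in the other barcodes, and 4 were lower in every Taz-KO mouse, against 6.79% of all genes. Mrc1, the mannose receptor of resident macrophages, was at 295, 294, 269 and 209 CPM in WT hearts, against 134, 175 and 67.9 CPM in Taz-KO hearts (log2 fold change -0.996 ± 0.28 (SE); other barcodes -0.18). F13a1, another gene of these macrophages, was at 583, 385, 519.9 and 435 CPM in WT hearts, against 275, 311 and 175 CPM in Taz-KO hearts (log2 fold change -0.88 ± 0.26 (SE); other barcodes -0.10). Summed, the 11 listed macrophage markers were at 934 to 1580 CPM in WT and 379 to 1258 CPM in Taz-KO, and the 8 lymphocyte markers at 115 to 226 CPM in WT and 36.1 to 57.4 CPM in Taz-KO. Bank1 was the 1 lymphocyte marker of 8 that passed the filter on low counts, with 127, 162, 96 and 22 UMIs in WT and 80, 25 and 4 in Taz-KO, so the lymphocyte sum is no result apart from Bank1, and in Taz-KO 5301 these 4 UMIs were the whole sum. No marker of either list was at 0 over the 7 mice. Bank1, an adaptor of B cells, was at 161, 104, 141 and 86.9 CPM in WT hearts, against 42.5, 40.4 and 38.8 CPM in Taz-KO hearts (log2 fold change -1.59 ± 0.28 (SE), edgeR adjusted p = 0.0902, DESeq2 adjusted p = 0.0139). Blnk, a linker of the B cell receptor, was at 51.8, 41.6, 46.9 and 71.1 CPM in WT hearts, against 15.4, 4.85 and 9.70 CPM in Taz-KO hearts (log2 fold change -2.08 ± 0.38 (SE), edgeR adjusted p = 0.0954, DESeq2 adjusted p = 0.0215). Lymphocyte markers were not limited in the set with fibroblast, macrophage and endothelial markers at or below the library. There the log2 fold change was -0.68 for Mrc1, -0.76 for F13a1 and -1.90 for Bank1. With a marker enrichment of at least 20 it was -0.76 for Mrc1, -0.92 for F13a1 and -0.52 for Bank1, and with equal weight per nucleus -0.54, -0.54 and -1.04. With an assumed ambient share of 0.2 subtracted it was -1.71, -1.36 and -2.52. The median of the macrophage list was -0.75 with that subtraction, -0.76 with sums thinned to equal depth, and ran from -0.64 without Taz-KO 5300 to -0.15 without WT 5355 (-0.16 without Taz-KO 5301). Fibroblast markers were also mostly lower, at 10 of 12 (median -0.37; other barcodes -0.69), with a median of -0.09 without WT 4909 and 0.00 without Taz-KO 5301. The same held for cardiomyocyte markers, at 10 of 12 (median -0.39, but 0.01 without Taz-KO 5301; other barcodes -0.29). The part that immune cells in mixed droplets had in these values was not tested.

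Genes of the integrated stress response, which cells switch on when mitochondria or translation fail, were higher in 7 and lower in 1 of 8 tested, with a median of 0.75, and 1 was higher in every Taz-KO mouse, against 4.14% of all genes. The summed level of the 23 listed genes was 225 to 277 CPM in WT hearts, against 515, 673 and 244 CPM in Taz-KO hearts, so Taz-KO 5301 lay within the WT range. The other barcodes had a median of 0.92, and the list's summed level was 0.479 to 1.51 times that of the other barcodes, so it was not particular to adipocyte nuclei. Other genes of the response were tested only without Taz-KO 5301 or by DESeq2 and are named after their values were seen. Gdf15, a secreted stress hormone, was counted with 0, 1, 1 and 0 UMIs in WT hearts, against 56, 35 and 1 UMIs in Taz-KO hearts. It was called without Taz-KO 5301 (log2 fold change 5.80, edgeR adjusted p = 0.00662) and had a change of 5.40 in the other barcodes. Mthfd2, an enzyme of mitochondrial one-carbon metabolism, was likewise called (2.69, edgeR adjusted p = 0.00662; other barcodes 2.67), as was Asns, the asparagine synthetase (2.01, edgeR adjusted p = 0.0455; other barcodes 4.15). Gdf15, Mthfd2 and Asns passed the filter on low counts there only through Taz-KO 4910 and 5300. WT hearts had 7, 18, 6 and 1 UMIs of Mthfd2 and 8, 14, 6 and 1 of Asns. The fold changes and p-values of these genes thus lean on low WT counts. Over all 7 mice the DESeq2 adjusted p was 0.000589 for Gdf15 and 0.0215 for Mthfd2, but 0.304 for Asns, which was not called. Cyb5r1 (7.59, 8.97, 10.3 and 3.95 CPM in WT hearts, against 40.9, 56.6 and 19.4 CPM in Taz-KO hearts), Nars, an aminoacyl-tRNA synthetase (27.8, 30.1, 27.8 and 19.8 CPM in WT hearts, against 80.1, 92.2 and 38.8 CPM in Taz-KO hearts), and Astn2 (19.0, 35.9, 20.5 and 19.8 CPM in WT hearts, against 69.5, 67.9 and 126 CPM in Taz-KO hearts) were also higher in every Taz-KO mouse. Their log2 fold changes were 2.37, 1.50 and 1.60 in adipocyte nuclei and 1.99, 1.40 and 1.96 in the other barcodes. Their median ratios to the other barcodes were 0.744, 0.781 and 0.385. Cyb5r1 had 6, 14, 7 and 1 UMIs in WT hearts and passed the filter on low counts only through the Taz-KO mice. What share of these transcripts came from free RNA was not tested.

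Parm1 was called by DESeq2 (adjusted p = 0.000224), and the size of its change depended on 1 mouse. It was at 43.0, 56.4, 48.3 and 43.5 CPM in WT hearts, against 130.0, 162 and 728 CPM in Taz-KO hearts, with Taz-KO 5301 far above all others. Without that mouse its log2 fold change was 1.57 in place of 2.61, and edgeR called it then (adjusted p = 0.0217). The change in the other barcodes was -0.16.

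Thermogenic genes varied widely among hearts of the same genotype. Ucp1, the uncoupling protein of brown and beige adipocytes, was at 153, 691, 1114 and 150.1 CPM in WT hearts, against 206, 438 and 893 CPM in Taz-KO hearts (log2 fold change -0.12 ± 0.72 (SE)). WT 5355 and 4909 had high levels and WT 4686 and 5356 low ones, and the Taz-KO mice spanned the same range. With every nucleus thinned to 2000 UMIs, a Ucp1 transcript was found in 16.4, 49.6, 64.1 and 8.18% of adipocyte nuclei in WT and 24.2, 36.6 and 49.4% in Taz-KO. The other barcodes had a Ucp1 transcript in 0.0813% to 2.69%, so these shares lay above the background in each mouse. In WT 5356 the unthinned share rested on 3 of 35 nuclei. Of the adipocyte nuclei, 1 of Taz-KO 5300 was too shallow to be thinned and was left out. Unthinned, the shares were 29.3, 62.1, 69.8 and 8.57% in WT and 44.3, 47.9 and 53.3% in Taz-KO. Cidea, a lipid droplet protein of brown fat, was at 415, 336, 328 and 86.9 CPM in WT hearts, against 535, 378 and 349 CPM in Taz-KO hearts, lowest in WT 5356, which also had low Ucp1. For comparison, Pparg was found in 73.6% to 96.4% of thinned adipocyte nuclei and in 13.5% to 18.0% of other barcodes. Of 17 thermogenic genes tested, 10 were higher and 7 lower in Taz-KO (median 0.27), and 1 was higher in every Taz-KO mouse, against 4.14% of all genes. Without 1 mouse the median ran from 0.03 (without WT 5356) to 0.53 (without WT 5355), and it was 0.06 without Taz-KO 5301. This median was -0.18 in the nuclei with fibroblast, macrophage and endothelial markers at or below the library.

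Other adipocyte genes varied in another pattern among mice. Adipoq, the adipokine adiponectin, was at 74.6, 149, 157 and 379 CPM in WT hearts, against 114, 98.7 and 107 CPM in Taz-KO hearts, and Slc7a10, an amino acid transporter of white adipocytes, was at 62.0, 60.2, 60.0 and 356 CPM in WT hearts, against 78.0, 77.6 and 204 CPM in Taz-KO hearts. Both were highest in WT 5356. The marker enrichment of the nuclei was also highest in WT 5356, with a median of 72.8 times the library, against 23.7 to 28.2 in the other WT mice. Tshr was at 27.8, 91.6, 237 and 944 CPM in WT hearts, against 32.4, 74.4 and 301 CPM in Taz-KO hearts, a wide range within each genotype. These 3 genes were among those that chose the nuclei, and are described without a test between genotypes.

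Clock genes varied among mice within a genotype. Npas2, a paralog of Clock that pairs with BMAL1, was at 7.59, 17.3, 164 and 237 CPM in WT hearts, against 18.0, 22.6 and 9.70 CPM in Taz-KO hearts, and Arntl, which encodes BMAL1, was at 12.6, 20.5, 123 and 119 CPM in WT hearts, against 7.43, 24.3 and 58.2 CPM in Taz-KO hearts. WT 5355 and 5356 were high for both. Per3, a repressor of the clock that peaks at another time of day, was at 176, 147, 27.8 and 67.2 CPM in WT hearts, against 152, 72.8 and 136 CPM in Taz-KO hearts, and was lowest in these same 2 mice. Of 16 clock genes 9 were higher and 7 lower in Taz-KO (median 0.07, but -0.15 without WT 5355 and 0.29 without WT 4686), and none had separated mice. The time of day at which the hearts were taken is not given in the sources used here, and its part in these values was not tested.

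**Figure D5:**
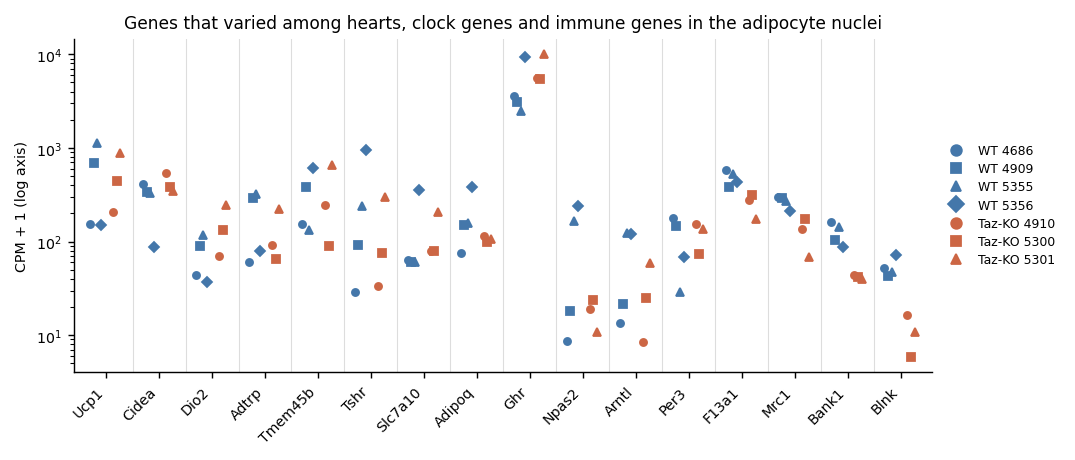
CPM + 1 (log axis) in the adipocyte nuclei of each of 7 hearts, for thermogenic and other adipocyte genes, clock genes and immune genes. Each symbol is 1 mouse, WT in blue and Taz-KO in orange. Ucp1, Tshr, Npas2 and Arntl spread widely among mice of 1 genotype, whereas Mrc1, F13a1, Bank1 and Blnk have all orange symbols below the blue ones.

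The study lists 24 genes as changed in adipocytes, a list chosen on these same samples and so no independent evidence of direction. All 24 could be tested, 16 were higher and 8 lower in Taz-KO, and in 17 the mice did not overlap, against 4.14% higher and 6.79% lower of all genes. With mice as the replicates, edgeR called none at an adjusted p of 0.05 and DESeq2 called 7, among them Elovl6, Acly, Fasn, Hk2 and Thrsp, against 0.245% higher and 0.117% lower of all genes.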

How the data were processed

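For each heart a matrix of unnormalized UMI counts was deposited by the authors, made with Cell Ranger 6.0.1 against the mm10 reference with intronic reads counted, before their correction for ambient RNA, removal of doublets and filters. Those later steps were not applied here. The adipocyte nuclei, the gene lists and the naming rule were chosen with earlier results of these data known.

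Matrices were read with Python 3.11.15, numpy 2.4.6, scipy 1.17.1 and pandas 2.3.3. UMIs outside the mitochondrial genome were summed per mouse over the adipocyte nuclei and, separately, over the other barcodes. The test was the robust quasi-likelihood F test of edgeR 4.0.16 (R 4.3.3) with genotype as the only term, after TMM scaling and the default filter of filterByExpr, and p was adjusted over all genes tested by the Benjamini-Hochberg method. The SE of an edgeR log2 fold change was derived from this test, as the absolute fold change divided by the square root of F. It is thus an approximation. DESeq2 1.42.0 was the other tool, and limma 3.58.1 served a fit with equal weight per nucleus. The scripts were tested on simulated data. Levels of single genes between genotypes are CPM scaled by TMM, whereas levels of the genes of the choice beside other barcodes, sums over lists and ratios are unscaled CPM.

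Both counting error, which is largest for Taz-KO 5301 and WT 5356, and the spread between mice limit the precision. Mice were said to be separated, or not to overlap, where every Taz-KO mouse lay above or below every WT mouse. Genes were named if they belonged to the choice, were Taz, were among the 4 members of a list with the highest level or the smallest p, were among the 12 genes in each direction with the smallest p and separated mice (leaving out genes of fatty acid synthesis and symbols starting with Gm and a digit or ending in Rik), were listed by the study for adipocytes, or were among the 12 most enriched with at least 20 UMIs in each mouse. AY036118, Malat1 and summed markers of other cell types were also followed. Gene positions are from the GENCODE annotation of GRCm38. Shares and depths were compared by exact permutation tests over mice. Alternatives changed the tool, normalization, filter, enrichment limit, depth, purity, ambient share and mice. Taz-KO 4685, with 4 nuclei, was left out of tests between genotypes except in the alternative with all 8 mice. The result for 1 gene is not reported here.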

Additional observations from a re-analysis of the deposited data

Results flagged for a closer look

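Among 146 groups of 4 mice of 1 genotype, mostly WT, 13 held an outlying mouse. Its distance from the nearest other was too large a part of the whole range (Dixon's criterion at 95%). Chance alone exceeds this in about 1 in 20 groups, and 7 of the 13 were WT 5356, the WT mouse with the fewest adipocyte nuclei. Slc7a10, at 356 CPM in WT 5356 against 60.0 to 62.0 CPM, is counted here. It helped to choose the nuclei, so its value is only a description. In WT 5356 Ghr was at 9445 CPM against 2484 to 3576 CPM in the other WT mice, Kif13b at 336 against 207 to 227 CPM, and Fgf2 at 190 against 45.5 to 51.3 CPM. Its Lepr was lower, at 7.90 against 17.3 to 19.0 CPM, as was its Pdk2, at 27.7 against 67.0 to 69.2 CPM. Its summed Schwann cell markers were at 169 against 104 to 112 CPM.

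WT 4686 was high for Hephl1, at 5.06 against 0 to 0.641 CPM, for Mfsd2a, at 10.1 against 0 to 1.46 CPM, and for Mpc1, at 331 against 259 to 265 CPM. WT 4909 was high for Astn2, at 35.9 against 19.0 to 20.5 CPM, and for Tnik, at 140 against 120 to 122 CPM. WT 5355 was high for Mgat5, at 208 against 149 to 150 CPM. The 3 Taz-KO mice are too few for this criterion.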

How the results depend on the processing

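The count of genes that differed between genotypes in adipocyte nuclei, 0 in edgeR, was 34 in DESeq2, 210 without a filter on low counts (123 higher and 87 lower, of 21413 genes) and 1, Elovl6, with the sums thinned to equal depth. Leaving out 1 mouse at a time gave 0 to 28, with 28 without Taz-KO 5301 and 0 without any of the other 6; where 2 Taz-KO mice remain, the call rests on 2 mice. Of the 34 genes of DESeq2, 15 were also among these 28. The count was 0 with DESeq2 size factors, a marker enrichment of at least 20, all 8 mice and equal weight per nucleus. It was also 0 with fibroblast, macrophage and endothelial markers limited to the library's share, and with an assumed ambient share of 0.2 subtracted. Fewer genes were tested after thinning. Without the filter, some genes that the main fit had also tested passed, such as Hk2 (edgeR adjusted p = 1.18e-06, against 0.151 with the filter). Others, such as F13a1, did not (edgeR adjusted p = 0.0770). The causes of the differing counts were not tested. Of the 104 single genes followed, the main fit called 0, and 39 passed in at least 1 alternative. Among those with an unadjusted edgeR p below 0.05 in the main fit, 0 changed sign. Sign changes of the other genes were not counted.

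The number of enriched genes higher in every Taz-KO mouse was 30 of 237 (12.7%, against 4.14% of all genes), and 30 after thinning (12.7%, against 2.34%). With fibroblast, macrophage and endothelial markers limited to the library's share it was 17 (7.17%, against 2.90%). Without 1 mouse, which makes separation easier, it was 33 to 50 (50 without WT 4686, 21.1% against 6.45% of all genes). The share came nearest to that of all genes without Taz-KO 5301, at 34 (14.35%, against 10.36%). There 7 enriched genes were lower in every Taz-KO mouse (2.95%, against 10.7% of all genes). These alternatives were chosen after seeing the data. Of the medians of gene lists, 391 of 398 values moved by less than the spread. The other 7 were triglyceride synthesis (0.05 with all 8 mice, -0.09 without Taz-KO 5301), receptor kinases (-0.11 with all 8 mice), TGF-beta, BMP and activin (0.17 with all 8 mice, -0.22 without Taz-KO 4910), lipid droplet (0.35 thinned) and endothelial markers (0.24 at an enrichment of at least 20). A move below the spread could still change the sign of a median. With fibroblast, macrophage and endothelial markers limited to the library's share, fatty acid oxidation went from 0.05 to -0.15 and thermogenic genes from 0.27 to -0.18. Fibroblast markers went from -0.37 to -0.002 without Taz-KO 5301. The difference in share of adipocyte nuclei, Taz-KO minus WT, was 0.0630 to 0.149 percentage points under other definitions and 0.00883 to 0.180 without 1 mouse. For the share of UMIs it was 0.224 percentage points. The difference in UMIs per nucleus was -4030 with means and -3594 to -1767 without 1 mouse. No paired analysis was possible because the mouse numbers are not shared between genotypes. Depth limits the report most in Taz-KO 5301 and WT 5356.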

Other observations

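Ribosomal and nuclear RNAs were followed as signs of library composition. AY036118, an RNA of the ribosomal repeat region, was at 851, 549.6, 893 and 1102 CPM in WT hearts, against 2652, 3298 and 1407 CPM in Taz-KO hearts in the adipocyte nuclei (log2 fold change 1.54 ± 0.34 (SE)), above the WT mice in each Taz-KO mouse, and was higher in the other barcodes too (log2 fold change 1.60). Malat1, a nuclear long noncoding RNA, was at 51306, 51595, 70400.0 and 86466 CPM in WT hearts, against 69129, 60845 and 125530.0 CPM in Taz-KO hearts (log2 fold change 0.39 ± 0.45 (SE)), with Taz-KO 5301 the highest. Rpl3l, a muscle paralog of the ribosomal protein Rpl3, was at 44.3, 48.0, 55.6 and 23.7 CPM in WT hearts, against 10.1, 12.9 and 19.4 CPM in Taz-KO hearts, lower in each Taz-KO mouse, and had a log2 fold change of -2.79 in the other barcodes, where it is a cardiomyocyte transcript.

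Markers of the remaining cell types were 3 higher and 7 lower of 10 tested for endothelial cells (median log2 fold change -0.15, but 0.00 without Taz-KO 5301 and 0.24 with a marker enrichment of at least 20) and 2 higher and 7 lower of 9 for pericytes and smooth muscle (-0.34, but -0.07 without WT 4909 and -0.20 without Taz-KO 5301). For mesothelial cells 2 of 2 tested were higher (0.81), for Schwann cells 1 was higher and 2 lower of 3 (-0.06, but 0.10 without WT 5355), and 1 lymphocyte marker, Bank1, could be tested. The 20 adipocyte markers outside the choice were 12 higher and 8 lower (median 0.06, but 0.27 without WT 5356 and -0.02 without Taz-KO 5301), against a median of -0.39 in the other barcodes and -0.01 over all genes in adipocyte nuclei.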
